A study of Mus musculus with 8 samples.

Results

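Ank2 and Ank3, the genes for the neuronal ankyrins ankyrin-B and ankyrin-G, were examined as targets of the RNA-binding protein Ptbp2 in the embryonic mouse cortex. Each locus was a fixed interval of the mm9 genome, and a sequenced tag belonged to it when the midpoint of the tag fell inside the interval on the strand of the gene. The Ank2 interval was chr3:126624000-127203000 on the minus strand (579 kb) and the Ank3 interval was chr10:68861000-69491000 on the plus strand (630 kb). Together they held 7321 of 3098854 tags (0.236%, exact Clopper-Pearson 95% interval 0.231 to 0.242%), of which 4138 lay in Ank2 and 3183 in Ank3. The tags came from HITS-CLIP, in which ultraviolet light fixes a protein to its RNA in the tissue, and the RNA fragments left on the protein are recovered and sequenced. The study used cortex of CD1 embryos at embryonic day 18.5, with titles that carry WT, and made 4 libraries from each of 2 brains. No library of another genotype, another antibody or input RNA was analysed here. A tag count therefore holds both the binding of Ptbp2 and the abundance of the transcript, and in bulk tissue fewer cells of a type and less RNA per cell cannot be told apart.

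Ankyrins are adaptor proteins that tie ion channels, transporters and adhesion molecules of the membrane to the spectrin cytoskeleton. Ankyrin-G organises the axon initial segment and the nodes of Ranvier, where it gathers voltage-gated sodium channels, and ankyrin-B acts along the axon, where it has roles in branching and in the transport of organelles. Both genes are long, with many exons and several promoters, and each makes giant neuronal isoforms by including a very large exon. Ptbp2 is the neuronal paralog of Ptbp1, binds pyrimidine-rich RNA and regulates alternative splicing during neuronal differentiation, often by keeping exons out.

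The libraries of brain 2 held 228424 to 340852 tags, and those of brain 1 held 458293 to 545387. Tags were 27 to 30 nt long. Between 8.09% and 12.8% of the tags of a library lay at a position already taken by another tag of that library, except in library 4 of brain 2, the shallowest, where the share was 18.6%. Because all 4 libraries of a brain came from the same animal, every comparison between brains rests on 1 animal each and its p-value measures the spread between libraries, which is technical. Tests over all 8 libraries rest on 2 animals and do not measure the spread between animals. Intervals on shares cover counting error only.

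Both ankyrin intervals were densely and almost exclusively tagged on the strand of the gene. Ank2 held 7.15 tags per kb over all libraries and Ank3 held 5.05. On the opposite strand the same intervals held 78 tags (0.135 per kb) at Ank2 and 136 tags (0.216 per kb) at Ank3. The gene's strand thus carried 98.2% of the tags at Ank2 (exact 95% interval 97.7 to 98.5%) and 95.9% at Ank3 (95.2 to 96.6%). In the 100 kb next to each interval on the same strand, the density was 0.29 tags per kb upstream and 0.90 downstream of Ank2, and 0.25 upstream and 0.89 downstream of Ank3. Tag density was therefore several times higher inside the intervals than in either flank. Among the 8328 strand-specific genome tiles of 600 kb that passed the count filter of the fits below, the median held 0.425 tags per kb. The tiles were not aligned to genes, and those with too few tags for the filter were left out. Ank2 was 16.8 times and Ank3 11.9 times as dense as that median. Only 14 tiles (0.168%) were denser than Ank2, and 38 (0.456%) were denser than Ank3.

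The number of Ank2 tags was 334, 342, 474 and 298 in libraries 1 to 4 of brain 2, and 781, 672, 623 and 614 in libraries 1 to 4 of brain 1. As counts per 1000000 tags of the library (CPM), Ank2 stood at 1249, 1039, 1391 and 1305 in brain 2, and at 1432, 1466, 1355 and 1307 in brain 1. Library 2 of brain 2 was the lowest, and library 3 of brain 2 lay among the libraries of brain 1, so the brains overlapped. The mean was 1246 ± 150 CPM in brain 2 and 1390.3 ± 72.1 CPM in brain 1 (SD over the 4 libraries of each), with p = 0.114 in a two-sided exact permutation test (0.229 adjusted over the 2 loci). With 4 libraries against 4 that test cannot give a p below 0.0286. In a limma fit over all tiles and both loci, Ank2 had a log2 fold change, brain 2 over brain 1, of -0.23 ± 0.13 (SE; 95% interval -0.48 to 0.02), with a limma adjusted p of 0.478.

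Ank3 followed with 235, 274, 344 and 282 tags in libraries 1 to 4 of brain 2, and 627, 489, 451 and 481 in libraries 1 to 4 of brain 1. These made 879, 832, 1009 and 1234.5 CPM in brain 2, and 1149.6, 1067, 981 and 1024 CPM in brain 1. Library 4 of brain 2 was the highest of all 8 and libraries 1 and 2 of the same brain were the lowest, so brain 2 spanned the range of brain 1. Ank3 averaged 989 ± 180 CPM in brain 2 and 1055.5 ± 71.9 CPM in brain 1 (SD, n = 4 each; exact permutation p = 0.543, also after adjustment). The limma log2 fold change was -0.17 ± 0.13 (SE; 95% interval -0.43 to 0.08), with an adjusted p of 0.646. Neither ankyrin was called, against 42 of all 8330 tiles and loci tested (0.504%). Both fold changes were below 0, as were those of 47.1% of all tested, and the brains overlapped at both loci, while in 5.64% of all tested they did not. The intervals still allow a level in brain 2 somewhat below that of brain 1 at either gene.

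**Figure D1:**
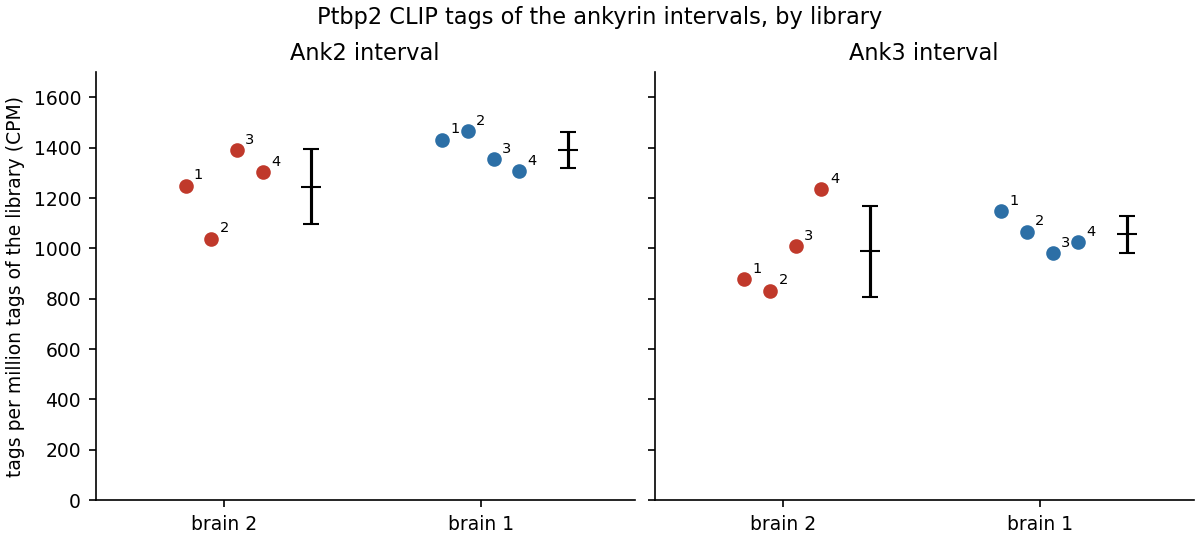
CPM (vertical axis, from 0) for the Ank2 interval (left) and the Ank3 interval (right), with 1 point per library numbered as in the text and the mean ± SD of the 4 libraries of each brain in black. Brain 2 spread more widely than brain 1 at both loci, and the brains overlapped at both.

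Ank2 held more tags per kb of its interval than Ank3 in every library. The ratio of tags per kb, Ank2 over Ank3, was 1.55, 1.36, 1.50 and 1.15 in libraries 1 to 4 of brain 2, and 1.36, 1.50, 1.50 and 1.39 in libraries 1 to 4 of brain 1. All 8 ratios lay above 1 with these interval lengths, and the lowest came from library 4 of brain 2. The mean log2 ratio was 0.49 ± 0.14 (SD, n = 8 libraries), or 1.41-fold. A two-sided exact sign-flip permutation test gave p = 0.00781, the smallest p that 8 libraries can give. The 8 libraries came from 2 animals, so this p counts technical libraries as units. Within a brain the mean log2 ratio was 0.46 ± 0.19 in brain 2 and 0.52 ± 0.08 in brain 1, where 4 libraries cannot give an exact p below 0.125. The brains overlapped in this ratio (exact permutation p = 0.743). The size of the ratio depended on the length assigned to Ank3. RefSeq gives Ank2 a length of 578741 nt and Ank3 a length of 493951 nt in GRCm38.p6, so the Ank3 interval is 136050 nt longer than its RefSeq gene and the Ank2 interval only 260 nt longer. With the RefSeq lengths the mean log2 ratio was 0.14, or 1.10-fold (exact sign-flip p = 0.0391), and without the sparse leading 126 kb of the Ank3 interval it was 0.19, or 1.14-fold (p = 0.0156 by the same exact test). With either change the ratio of library 4 of brain 2 fell below 1, so the higher density of Ank2 no longer held in every library. Both were chosen after the data were seen.

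Ank2 was tagged along its whole length. All 57 of its 10-kb windows held tags, with a median of 61 and a range of 12 to 198, and 53 of them held 20 or more. The longest stretch without a tag was 6981 nt, at chr3:126843244-126850224, and 16 windows (28.1%) were enough to hold 50% of the tags. When the interval was cut into 10 equal segments of 57.9 kb from the 5′ end, the segments held 4.35, 5.87, 6.77, 15.8, 17.2, 10.6, 3.70, 11.5, 11.3 and 13.0% of the Ank2 tags. The profile thus had a broad maximum in segments 4 to 6, a minimum in segment 7 and a second maximum toward the 3′ end.

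The Ank3 interval was tagged unevenly, with a leading stretch that was nearly empty. The first 2 of its 10 segments, 63 kb each, held 20 and 18 tags, together 38 of 3183 (1.19%) or 0.302 per kb, beside 0.25 per kb in the flank upstream. Segments 1 and 2 of Ank2 held 423 tags (10.2%). The Ank3 interval is 136050 nt longer than its RefSeq gene, so segments with the same number are not matched by place in the gene. Whether the leading stretch lies inside the Ank3 transcript was not tested. The leading segments of Ank3 held 1.58 ± 0.73% of the tags of a library in brain 2 and 0.91 ± 0.58% in brain 1 (SD over the 4 libraries of each). The 10 segments held 0.628, 0.566, 6.63, 22.3, 24.3, 14.6, 4.56, 5.78, 9.49 and 11.2% of the Ank3 tags. Segments 3 to 6 of the Ank3 interval therefore carried 2158 tags (67.8%), against 2084 (50.4%) in the segments of Ank2 with the same numbers. By brain, those segments held 65.6 ± 1.09% of Ank3 tags in brain 2 and 68.7 ± 3.59% in brain 1. The longest stretch of Ank3 without a tag, 22885 nt at chr10:68912337-68935221, lay in the sparse leading part, and 11 tag-free stretches were longer than 5 kb, against 2 in Ank2. Of its 62 windows 60 held tags and 44 held 20 or more, the median was 31.5, and 12 windows (19.4%) held 50% of the tags.

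**Figure D2:**
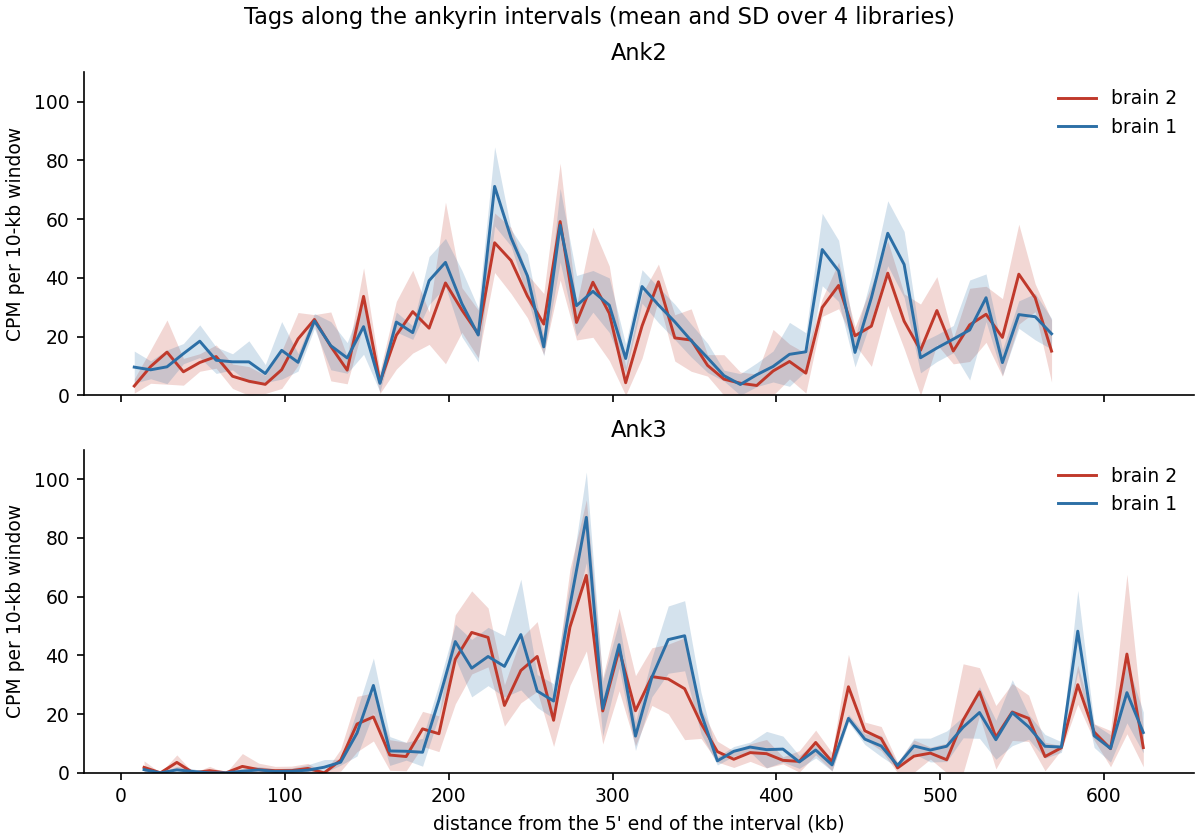
CPM in 10-kb windows (vertical axis) against the distance of the window's centre from the 5′ end of the interval in kb, for Ank2 (top) and Ank3 (bottom), with the mean of 4 libraries as a line and 1 SD as a band for each brain. Ank2 holds tags throughout, and the Ank3 lines stay near 0 over the first 126 kb and peak in the window with 246 tags.

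The fullest Ank2 windows began at 126970001, 126930001, 126960001, 126730001 and 126770001 on chromosome 3, the last tied with the window at 127000001. The first of these held 198 tags, with 16, 15, 14 and 14 in libraries 1 to 4 of brain 2 and 49, 29, 33 and 28 in libraries 1 to 4 of brain 1. The window at 126930001 held 184 tags, with 20, 20, 24 and 7 in brain 2 and 39, 30, 21 and 23 in brain 1. Both windows contained 5 tag clusters of height 10 or more, and no library was without tags in either.

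At Ank3 the fullest windows began at 69140001, 69130001, 69160001, 69080001 and 69060001 on chromosome 10, the last tied with the window at 69100001. The window at 69140001 held 246 tags, with 14, 14, 25 and 23 in libraries 1 to 4 of brain 2 and 59, 33, 37 and 41 in libraries 1 to 4 of brain 1. The neighbouring window at 69130001 held 170, with 10, 14, 27 and 9 in brain 2 and 29, 26, 23 and 32 in brain 1. These adjoining windows lay 269 to 289 kb into the interval and held 4 and 3 clusters.

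The windows kept much the same order in both brains. Over the windows with tags, the summed tags of brain 2 and brain 1 had a Pearson correlation of 0.868 (Spearman 0.885) across 57 windows of Ank2, and of 0.919 (Spearman 0.943) across 60 windows of Ank3. Windows of a locus share its transcript and the libraries, so these are descriptions. In the limma fit over all windows of the genome, 36 windows of the loci passed the count filter, 22 of Ank2 and 14 of Ank3. None was called, against 3 of all 3665 windows tested (0.0819%), and 9 of the 36 had an unadjusted p under 0.05 (25.0%, against 12.6% of all windows). That count moved with single libraries. It was 1 of 36 without library 2 of brain 2. Without library 1 of brain 2 it was 4 of 35, and without library 1 of brain 1 also 4 of 35. Leaving out each other library gave 6 to 9 of 35 or 36. It was 2 of 41 when the libraries of a letter were summed. The share of all windows under these settings was not examined. The lowest limma adjusted p was 0.307. Brain 2 was lower in 29 of the 36 (80.6%), against 75.1% of all windows, and the brains did not overlap in 2 of the 36, against 8.4% of all windows. The median log2 fold change, brain 2 over brain 1, was -0.26 over the 22 windows of Ank2 and -0.35 over the 14 of Ank3. It was -0.29 over all windows tested, so these medians lay near that of the windows that passed the count filter. Over all tiles and loci tested the median was 0.02, so the figure for windows is not that of the genome. The fullest Ank3 window had a log2 fold change of -0.53 ± 0.24 (SE, limma adjusted p = 0.366), and the fullest Ank2 window had -0.54 ± 0.23 (limma adjusted p = 0.362).

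**Figure D3:**
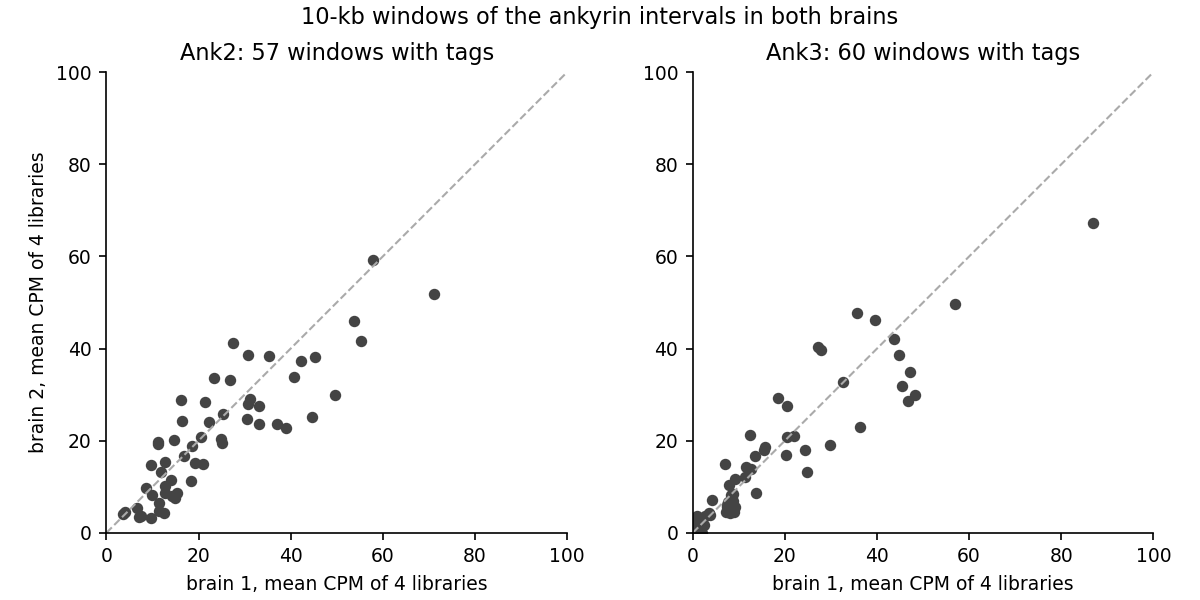
Mean CPM of the 4 libraries of brain 2 (vertical axis) against brain 1 (horizontal axis) for each 10-kb window with tags, 57 at Ank2 (left) and 60 at Ank3 (right), with the line of equal values dashed. Windows that are full in one brain are full in the other.

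Within the intervals, tags gathered at many short sites. Clusters were built from the tags of all 8 libraries, joining neighbours on the same strand that share at least 1 nt, and a cluster's height counts the tags that cover its most covered base. Ank2 had 59 clusters of height 10 or more (10.2 per 100 kb), 18 of them of height 20 or more, and Ank3 had 43 (6.83 per 100 kb), 13 of them of height 20 or more. They were narrow, with a median width of 52 nt at Ank2 and 48 nt at Ank3, and the widest spanned 101 and 105 nt. They held 25.3% of Ank2 tags (exact 95% interval 24.0 to 26.6%) and 27.3% of Ank3 tags (25.8 to 28.9%). At the limit itself, 8 clusters of each locus had a height of 10, while 12 of Ank2 and 8 of Ank3 fell just outside with 9. Tags of both brains were present in 58 of the 59 Ank2 clusters and in all 43 of Ank3. The exception, chr3:126774674-126774714, held tags of brain 1 only and is named because it was the single one. Tags of all 8 libraries were present in 7 clusters of Ank2 and 12 of Ank3. These clusters were built on the pooled tags of both brains, and the same shares over all clusters of the genome were not examined.

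The tallest Ank2 cluster, chr3:126976783-126976836, reached a height of 37 and held 2, 7, 0 and 0 tags in libraries 1 to 4 of brain 2, and 9, 7, 7 and 5 in libraries 1 to 4 of brain 1. The next, chr3:126742717-126742798 with a height of 36, held 6, 0, 6 and 2 tags in brain 2 and 13, 5, 3 and 4 in brain 1. Both left at least 1 library of brain 2 without a tag. The cluster at chr3:126973724-126973781, with a height of 32, was more even, with 2, 3, 5 and 3 tags in brain 2 and 4, 4, 6 and 5 in brain 1. It averaged 11.1 ± 3.36 CPM in brain 2 and 9.94 ± 2.48 CPM in brain 1 (SD, n = 4 each). The other 5 of the 8 tallest were chr3:127008955-127009019, chr3:126875402-126875465, chr3:127015783-127015864, chr3:126626532-126626575 and chr3:126932030-126932096, with heights of 26 to 36.

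The tallest Ank3 cluster stood well above the rest of both loci. It lay at chr10:69146948-69146992, 286 kb from the 5′ end of the interval, and reached a height of 76. Its tags numbered 3, 4, 13 and 4 in libraries 1 to 4 of brain 2, and 17, 8, 11 and 16 in libraries 1 to 4 of brain 1. Every library held it, at 19.8 ± 12.6 CPM in brain 2 against 26.7 ± 7.47 CPM in brain 1 (SD, n = 4 each), and the brains overlapped (exact permutation p = 0.40). Its tags took 29 different positions and the fullest position held 13.2% of them. It ranked 366 by height among the 22803 clusters of height 10 or more in the genome. The next Ank3 cluster, chr10:69169063-69169111 with a height of 46, held 5, 4, 4 and 6 tags in brain 2 and 8, 8, 2 and 9 in brain 1. The third, chr10:69449252-69449315 with a height of 38, held 4, 1, 3 and 2 tags in brain 2 and 8, 6, 8 and 8 in brain 1, with 60.0% of its tags at 1 position. The other 5 of the 8 tallest were chr10:69106605-69106665, chr10:69148038-69148090, chr10:69147598-69147643, chr10:69196481-69196525 and chr10:69198171-69198211, with heights of 31 to 35.

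**Figure D4:**
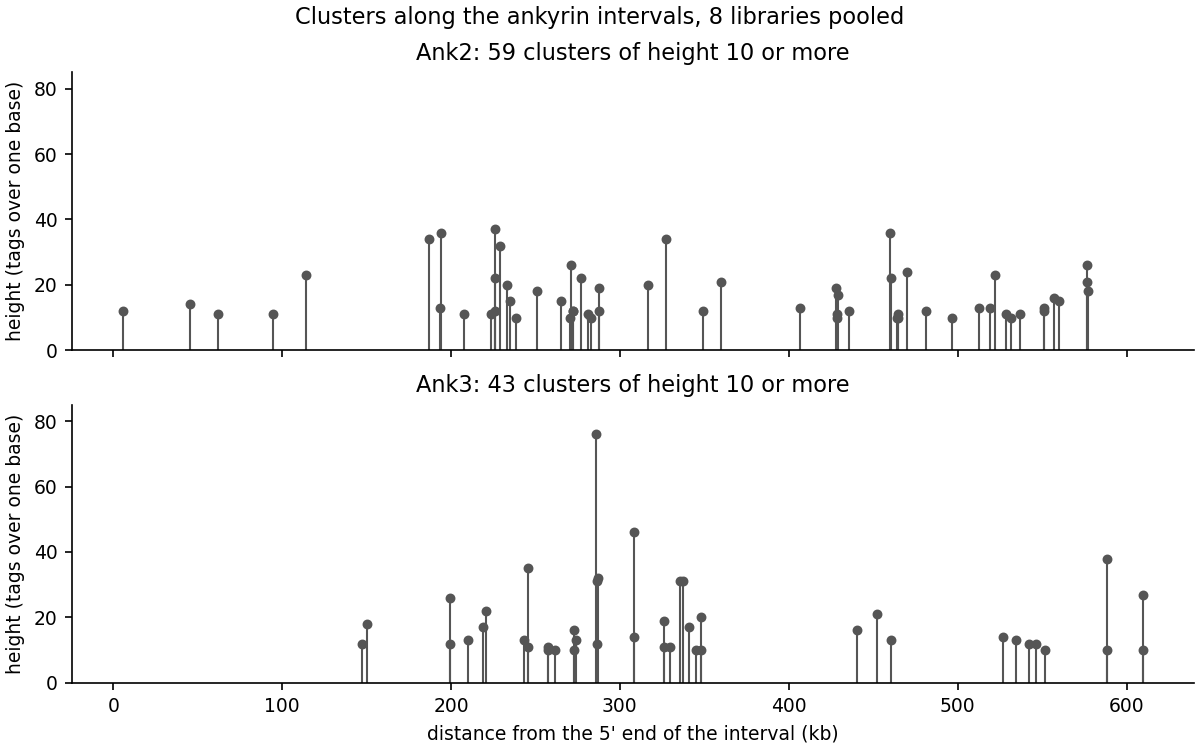
Height of each cluster of height 10 or more (vertical axis, tags over its most covered base, 8 libraries pooled) against its distance from the 5′ end of the interval in kb, 59 at Ank2 (top) and 43 at Ank3 (bottom). The Ank3 cluster of height 76 stands above the rest, no Ank3 cluster lies in the first 126 kb, and Ank2 clusters reach 37.

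Many of these sites lay close together. A further cluster of the set stood within 1000 nt of 25 Ank2 clusters (42.4%) and 23 Ank3 clusters (53.5%). Over all 22803 clusters of height 10 or more in the genome, the share was 20.6%. That figure was not matched for the density of clusters, whose part was not tested. Some neighbours were parted by only a few untagged bases, such as 1 nt after chr3:126626490-126626530 and 7 nt after chr10:69470551-69470581. At Ank3 the tallest cluster opened a run of 4 within 1143 nt, chr10:69146948-69148090, which held 51 tags of brain 2 and 100 of brain 1. At Ank2 the run with the most clusters also had 4, within 1402 nt at chr3:126773824-126775225, and held 17 tags of brain 2 and 41 of brain 1. The tallest Ank2 cluster belonged to a run of 3 within 255 nt, with 17 tags of brain 2 and 55 of brain 1. Whether these runs lie beside particular exons is not analysed here, because no annotation of the mm9 build was used.

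The ankyrins had a larger share of their tags in clusters than the rest of the genome, in every library. The share averaged 25.5 ± 1.68% at Ank2 and 26.9 ± 2.28% at Ank3, against 15.9 ± 1.16% in the rest of the genome (SD, n = 8 libraries). The difference was 9.53 percentage points for Ank2 and 10.98 for Ank3, each higher in 8 of 8 libraries. The exact sign-flip permutation p was 0.00781 for each (0.0182 adjusted over 7 such differences, chosen after the data were seen). The clusters were called on the pooled tags of these 8 libraries, which came from 2 animals, so agreement over libraries is not independent. The height limit of 10 was the same at every density, so this test cannot tell clustering from density. Ank2 minus Ank3 was -1.45 percentage points, with 3 of 8 libraries above 0 (adjusted exact sign-flip p = 0.273). The share in clusters had a median of 35.6% in the 14 tiles denser than Ank2, 13 of which exceeded Ank2, and of 30.8% in the 38 tiles denser than Ank3, 25 of which exceeded Ank3. The share of tags at a repeated position was also higher, at 16.0 ± 4.44% for Ank2 and 15.5 ± 5.58% for Ank3, against 11.7 ± 3.21% in the rest of the genome, in 8 of 8 and 7 of 8 libraries. The part of density and of repeated positions in the share was not tested.

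No cluster of either ankyrin was called different between the brains. None of the 102 passed the count filter of the limma fit, which left 451 clusters of the genome and called 2 (0.443%). Without that filter all 102 were tested and none was called, against 9 of 22803 (0.0395%), while 7 had an unadjusted p under 0.05 (6.86%, against 6.27% of all). The lowest limma adjusted p was 0.785. In this fit brain 2 was lower in 70 of the 102 (68.6%), against 47.4% of all 22803 tested. The median log2 fold change was -0.24 at Ank2 and -0.25 at Ank3, against 0.05 over all. By mean CPM without scaling, brain 2 was higher in 27 of the 59 Ank2 clusters and 15 of the 43 Ank3 clusters. Clusters of a locus share its transcript and the libraries, so these counts are descriptions.

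Clusters called in each brain alone gave lists of different length. At a height of 5 or more, brain 2 gave 51 Ank2 clusters, of which 32 (62.7%) overlapped one of brain 1, and brain 1 gave 101, of which 32 (31.7%) overlapped one of brain 2. At Ank3, brain 2 gave 31, of which 22 (71.0%) overlapped, and brain 1 gave 73, of which 22 (30.1%) overlapped. Over the whole genome, brain 2 gave 21063 such clusters, with 66.7% met by a cluster of the other brain, and brain 1 gave 42612, with 33.0% met. The genome's share lay within the exact 95% interval of each locus, so the shares at the ankyrins were near the general figure. The deeper brain gave the longer list at both genes. Upstream of the midpoint of its interval, Ank2 had 50.5 ± 3.74% of its tags in brain 2 and 49.98 ± 1.17% in brain 1, while Ank3 had 53.97 ± 1.36% in brain 2 and 54.3 ± 3.76% in brain 1 (SD, n = 4 each). The brains differed by less than this spread at both genes (exact permutation adjusted p = 0.886 for both). Of the 20 segments, only segment 8 of Ank2 separated the brains, with 10.5 ± 0.66% in brain 2 and 12.0 ± 0.45% in brain 1 (exact permutation p = 0.0286, adjusted over the 20 segments 0.476).

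The tiles whose levels followed the ankyrins most closely over the 8 libraries were named by position, with Pearson's r of log2 CPM among 383 tiles of 1000 tags or more. For Ank2 these were chr4:32400001-33000000 on the plus strand (r = 0.971), chr10:118800001-119400000 on the plus strand (0.961) and chr3:157800001-158400000 on the minus strand (0.944). For Ank3 they were chr1:133200001-133800000 on the minus strand (0.951), chr16:72000001-72600000 on the plus strand (0.940) and chr4:75600001-76200000 on the minus strand (0.939). The median r over the 383 tiles was 0.64 for Ank2 and 0.66 for Ank3. All tiles share the 8 libraries.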

How the data were processed

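Ptbp2 HITS-CLIP tags of 8 libraries were analysed, 4 from each of 2 brains, grouped by the labels' descriptions. The authors deposited one list of mapped tags with position, strand and a name that opens with the library code. The score column held 0 and was not used. Bowtie and the builds mm8 and mm9 are named per the submitters' processing notes, and chromosome 1 tags reach 197194446, past its end in mm8, so coordinates are given as mm9. The treatment of repeated reads and of reads that map more than once was not given in the sources used here. Per the labels' protocols, reads opened with 4 degenerate bases and a G. The letters a and b in the titles are not explained.

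Tags were counted by midpoint in the loci, in 600-kb tiles and in 10-kb windows, and by overlap in clusters. limma 3.58.1 (voom, R 4.3.3) was fitted with Benjamini-Hochberg adjustment at 0.05. A feature was tested with 15 or more tags in total and, in at least 4 libraries, a CPM no lower than 10 tags at the median depth. Scaling was a trimmed mean of log ratios over tiles (30% of ratios and 5% of levels trimmed) and was used for every unit, a choice made after the data were seen. Single values had exact permutation tests (scipy 1.17.1). The fits were tested on simulated data. Named were the 8 tallest clusters and 5 fullest windows per locus, any feature past the threshold and the 3 most similar tiles. The members and lists were chosen with earlier results of these data known. Differences from the rest of the genome, RefSeq lengths and leaving out the leading Ank3 stretch were added after the data were seen. Exons, cortex markers, partner genes and sequences are not analysed here.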

Additional observations from a re-analysis of the deposited data

Results flagged for a closer look

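Among 70 groups of 4 libraries (levels and shares of both loci, their density ratio, and their named windows and clusters), 2 held a library far from the other 3, where about 3.5 are expected because chance sets apart about 1 group in 20. In the Ank3 window that begins at 69130001 on chromosome 10, library 3 of brain 2 stood at 79.2 CPM, while the other libraries of brain 2 reached at most 42.5. In the Ank3 window that begins at 69060001, library 4 of brain 2 stood at 61.3 CPM, while the others reached at most 33.7.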

How the results depend on the processing

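Of 92 recomputed values over 7 results, 13 were cluster counts for which no cluster of the loci reached the count filter, so they bear on nothing. Of the other 79, 74 were unchanged in the sense given next, though their size could move. Among these, fold changes, density ratios and shares kept their direction and their side of the threshold. Counts of windows and clusters called stayed at 0, which has no direction. The 5 that turned were shares of tags upstream of the midpoint, brain 2 minus brain 1, none of which passed the threshold: for Ank2, -0.62 percentage points without library 1 and -0.44 without library 4 of brain 2, and for Ank3, 0.15 without library 2 of brain 2, and 0.67 without library 1 and 0.46 without library 2 of brain 1. The cause was not tested. With each library left out in turn, the log2 fold change, brain 2 over brain 1, ranged from -0.29 to -0.12 for Ank2 and from -0.30 to -0.08 for Ank3, the difference in share from -0.62 to 1.94 for Ank2 and from -2.08 to 0.67 for Ank3, and the log2 density ratio from 0.47 to 0.53. Other settings gave log2 fold changes of -0.28 to -0.17 for Ank2 and -0.22 to -0.12 for Ank3 (lowest limma adjusted p = 0.142 and 0.303). The log2 density ratio ranged from 0.14, with the RefSeq lengths, to 0.52 over its other settings. No window of the loci was called under any setting that was run, with 20 to 101 tested. Clusters of the loci were tested under 2 settings, 102 without the count filter and 1 with the libraries of a letter summed, and none was called. Libraries with the same number did not deviate together (correlations -0.0627, -0.0326, -0.008 and -0.0895). These deviations were taken from the mean of each brain's 4 libraries, so the check cannot settle whether the numbers pair them. With the replicate number as a block, the log2 fold change was -0.23 for Ank2 (limma adjusted p = 0.731) and -0.17 for Ank3 (0.811), 0 of 36 windows were called, and no cluster was tested. Depth limits the cluster comparison, since none of the 102 reached the count filter.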
